A study of Mus musculus with 9 samples.

Results

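The *Clec* genes, which are named after the C-type lectin family, were followed in the iris after corneal alkali injury. They were taken as every gene whose symbol begins with Clec and a digit, which gave 31 of the 18349 genes in the count files. Of these, 22 passed edgeR's filter on low counts and were tested, together with 15010 genes in all. The other 9 never exceeded 10 counts in a library. Iris RNA was sequenced in 9 libraries, 3 per group, each made from 3 pooled irises, in a study that used C57BL/6J mice of both sexes. At 6 weeks of age the cornea was exposed for 60 seconds to sodium hydroxide (1 M, 0.5 μL) or, in Sham mice, to PBS, and irises were taken 28 days later at 10 weeks. There was 1 Sham group (Sham VEGFR3 fl/fl) beside 2 injured groups, VEGFR3 fl/fl (below also injured fl/fl) and VEGFR3 iLECko, and the latter carried floxed alleles of *Flt4* (VEGFR3) and a tamoxifen-inducible Cre driven by *Prox1*, a gene of lymphatic endothelial cells that other cells of the eye also express. Tamoxifen at 80 mg/kg was given on days 13 to 17 after injury. The labels call both VEGFR3 fl/fl groups WT, and 2 libraries of the VEGFR3 iLECko group (replicates 2 and 3) have a genotype tag with another receptor number, whereas their titles name VEGFR3.

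C-type lectins share a fold that in many members binds sugars in a calcium-dependent way. Receptors of the Dectin-1 and Dectin-2 gene clusters sit on macrophages, dendritic cells (DCs) and neutrophils, where activating members signal through the kinase Syk, directly or through adaptors with activation motifs, and inhibitory members recruit phosphatases. Other members are ligands of natural killer receptors, endothelial adhesion proteins or secreted proteins of connective tissue, so the family spans immune and structural cells of the same tissue.

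The libraries held 16617187 to 18306359 counts. *Flt4* was not lower in the libraries labelled VEGFR3 iLECko, at 478, 370 and 476 counts against 277, 353 and 400 in injured fl/fl irises (log2 fold change 0.33, edgeR adjusted p = 0.200). These are counts over the whole gene and in all cells, so they are no check of the floxed exons in lymphatic cells. The 11 pigment cell and muscle markers of the iris were detected, 9 of them fell after injury, and their summed level went from 24880–28220 CPM (counts per 1000000, on the TMM scale) in Sham to 3623–6254 in injured VEGFR3 fl/fl and 5845–7071 in VEGFR3 iLECko libraries. Photoreceptor, lens and corneal genes varied between replicates, from 37.9 to 797.5 CPM when summed. The pools also differed in Y-linked expression, as 4 Y-linked genes summed to 51.1–167.1 CPM in Sham, to 0.804, 135.9 and 150.7 CPM in injured VEGFR3 fl/fl, in ascending order, and to 0.736–1.11 CPM in VEGFR3 iLECko libraries. In the 4 libraries with the lowest sums, male tissue was thus not apparent.

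In Sham irises the family was made up mostly of genes that are not myeloid. All *Clec* transcripts together summed to 266–273 CPM, of which *Clec16a*, a regulator of mitophagy, gave 37.9%, *Clec18a* 20.8% and the endothelial gene *Clec14a* 16.1%. Per length of the longest annotated transcript, *Clec18a* was highest at 28.04 CPM per kb, followed by *Clec16a* at 16.3 and *Clec14a* at 9.49 CPM per kb. After injury the sum was 1137–1359 CPM and the leading genes were receptors of myeloid cells. *Clec7a*, *Clec4n* and *Clec4d* then gave 27.2%, 14.8% and 12.8% of it, and stood at 145.7, 147.1 and 118.2 CPM per kb. In the libraries labelled VEGFR3 iLECko the family summed to 974–990 CPM, below every injured VEGFR3 fl/fl library and above every Sham library. A sum of this kind cannot tell fewer cells of a type from less RNA per cell, which holds for every value from these whole irises.

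**Figure D1:**
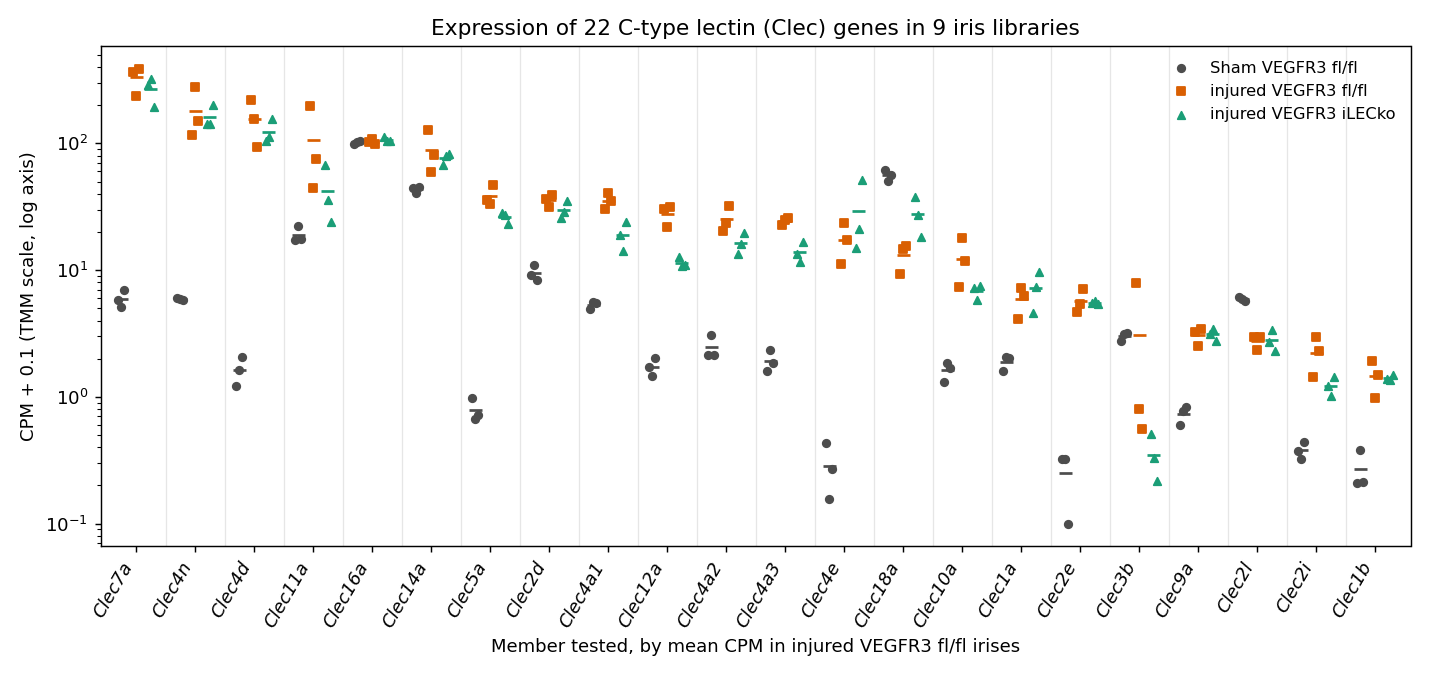
Normalized expression (CPM plus 0.1, log axis) of the 22 *Clec* genes tested, ordered by their mean in injured VEGFR3 fl/fl irises, with 1 symbol per library and a bar at the group mean. Myeloid genes such as *Clec7a* and *Clec4d* lay far above Sham in both injured groups, *Clec16a* stayed near 102 CPM, and *Clec18a* was highest in Sham.

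Alkali injury was compared with Sham in VEGFR3 fl/fl irises to see which lectins the injured iris expressed 4 weeks on. Of the 22 members tested, 18 were upregulated DEGs (differentially expressed genes, with more than 1.5-fold change and an adjusted p under 0.05 by edgeR's quasi-likelihood test) and 2, *Clec18a* and *Clec2l*, were downregulated. Among all 15010 genes, 22.1% were upregulated and 17.5% downregulated. The median log2 fold change of the members was 2.93 with 20 of 22 positive, against 0.0102 with 50.7% positive over all genes. The 18 upregulated members did not overlap with Sham in any library, nor did the 2 downregulated members, which held for 33.9% of all genes in the higher and 32.4% in the lower direction. A member with low Sham counts could pass the filter only through the injured groups, so these counts describe the genes tested and not the whole family.

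The 6 tested genes of the Dectin-2 cluster, which lies at chr6:122921848-123289871 of GRCm38, were all upregulated, with a median log2 fold change of 4.35. *Clec4d*, which encodes the receptor MCL, had 20, 27 and 35 counts in Sham and 3612, 2664 and 1637 in injured VEGFR3 fl/fl libraries. Its neighbour *Clec4e* encodes Mincle, which senses mycobacterial glycolipids and dying cells, and had 6, 1 and 3 counts in Sham and 183, 398 and 298 after injury. *Clec4n*, the gene for Dectin-2, had 106, 103 and 102 counts in Sham and 1914, 4737 and 2593 after injury. These activating receptors thus rose from near the limit of detection, or from a low and even level, to levels far above any Sham library. The log2 fold changes were 6.67 ± 0.39 for *Clec4d* (SE, edgeR adjusted p = 1.29e-06), 6.47 ± 0.73 for *Clec4e* (adjusted p = 6.61e-05) and 4.96 ± 0.35 for *Clec4n* (adjusted p = 3.52e-06).

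The other 3 tested genes of this cluster belong to the DCIR group, whose founding member *Clec4a2* carries an inhibitory motif. *Clec4a2* had 37, 53 and 36 counts in Sham and 336, 402 and 556 after injury. *Clec4a3* went from 27, 40 and 31 counts to 374, 425 and 450 counts. *Clec4a1* started higher, at 87, 97 and 96 counts, and reached 497, 692 and 609. Their log2 fold changes of 3.42, 3.73 and 2.75 (edgeR adjusted p at most 4.22e-06) lay below those of the 3 activating receptors. Of the *Clec4a2* sequence 8.19% is shared, over runs of 50 bases, with other genes, and the counting program and its handling of shared reads are not given in the sources used here.

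The 5 tested genes of the Dectin-1 cluster, at chr6:129349783-129472785, were upregulated too, with a median log2 fold change of 2.96. *Clec7a* encodes Dectin-1, the receptor for fungal beta-glucan, and reached the highest counts of the family. It had 104, 88 and 122 counts in Sham and 6069, 4073 and 6764 in injured VEGFR3 fl/fl libraries, a 56.5-fold rise (log2 fold change 5.82 ± 0.28, edgeR adjusted p = 4.20e-07). *Clec12a*, which encodes the inhibitory receptor MICL for uric acid crystals, had 29, 24 and 34 counts in Sham and 495, 370 and 544 after injury (log2 fold change 4.08 ± 0.20, adjusted p = 4.01e-07). Both genes were many times higher in each injured library than in any Sham library.

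The remaining members of the cluster stayed at low levels. *Clec1b*, which encodes the podoplanin receptor CLEC-2 of platelets, had 2, 5 and 2 counts in Sham and 30, 15 and 24 after injury. *Clec9a*, a receptor of cross-presenting DCs for actin exposed by dead cells, had 9, 12 and 13 counts and then 52, 41 and 58. *Clec1a*, expressed by endothelial and some myeloid cells, had 27, 35 and 34 counts and then 66, 121 and 108. Their log2 fold changes were 2.96, 2.21 and 1.68, with edgeR adjusted p-values of 0.000424, 8.97e-05 and 0.00165. *Clec12b* overlaps all 3 on the chromosome, and whether the counting used strand is not given in the sources used here, so these low counts may be split between neighbours.

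**Figure D2:**
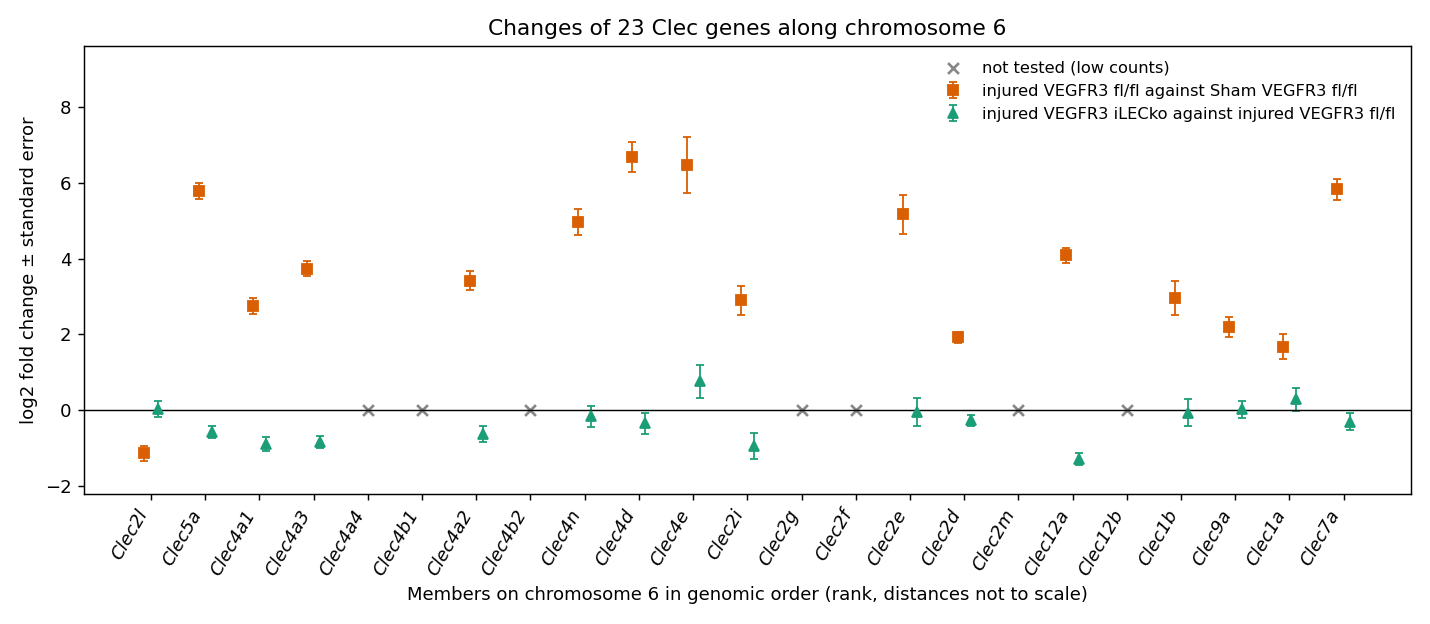
Log2 fold changes with standard errors for the 23 *Clec* genes of chromosome 6, in genomic order with distances not to scale; squares compare injured with Sham VEGFR3 fl/fl irises, triangles compare VEGFR3 iLECko with injured VEGFR3 fl/fl irises, and crosses mark genes with counts too low to test. Every tested gene on the chromosome except *Clec2l* lay above 0 after injury, and *Clec12a* was the lowest of them between the injured groups.

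The promoters of 4 myeloid members are shown because these genes moved together after injury and can be read beside the motifs of factors active in myeloid cells. RefSeq (GRCm38.p6) gave a promoter for 24 of the 31 members. The 250 bases before the start were searched on both strands for GAGGAAGT (PU.1), TGANTCA (AP-1), GGGANTTCC (NF-kB), GGAA followed after 2 free bases by GAAA (a joint IRF and ETS element) and TTGCNNAA (C/EBP), with capitals marking a match. The windows are chr6:129472780-129473029 on the minus strand for *Clec7a*, chr6:123289872-123290121 on the minus strand for *Clec4e*, chr6:122921598-122921847 on the plus strand for *Clec4a1* and chr6:122952265-122952514 on the plus strand for *Clec4a3*.
Clec7a: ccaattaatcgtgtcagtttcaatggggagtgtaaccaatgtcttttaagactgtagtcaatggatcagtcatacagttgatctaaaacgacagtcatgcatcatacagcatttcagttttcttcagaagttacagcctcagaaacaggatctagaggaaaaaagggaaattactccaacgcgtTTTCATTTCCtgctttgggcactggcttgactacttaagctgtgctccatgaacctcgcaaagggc
Clec4e: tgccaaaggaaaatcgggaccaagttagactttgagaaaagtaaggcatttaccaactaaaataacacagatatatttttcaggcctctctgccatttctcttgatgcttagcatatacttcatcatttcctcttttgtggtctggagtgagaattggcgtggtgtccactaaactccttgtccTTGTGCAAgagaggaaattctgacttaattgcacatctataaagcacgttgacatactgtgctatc
Clec4a1: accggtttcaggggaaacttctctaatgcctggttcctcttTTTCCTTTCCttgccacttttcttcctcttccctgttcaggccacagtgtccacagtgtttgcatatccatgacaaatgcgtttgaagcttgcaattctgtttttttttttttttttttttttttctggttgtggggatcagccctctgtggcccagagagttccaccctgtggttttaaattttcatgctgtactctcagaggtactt
Clec4a3: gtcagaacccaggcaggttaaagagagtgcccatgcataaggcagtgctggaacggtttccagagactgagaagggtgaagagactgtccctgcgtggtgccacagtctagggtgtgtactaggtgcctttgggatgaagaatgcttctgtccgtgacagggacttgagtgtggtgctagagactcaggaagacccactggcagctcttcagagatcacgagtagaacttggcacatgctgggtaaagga
*Clec7a* and *Clec4a1* held the IRF and ETS element on the opposite strand, 66 and 209 bases before the start. *Clec4e* held the C/EBP letters, also on the opposite strand, 66 bases before the start, and *Clec4a3* held none of the 5 motifs. The IRF and ETS letters were present in 3 of the 15 upregulated members with a promoter, the third being *Clec2i*, and in 2.3% of 32851 promoters. C/EBP letters were present in 3 of these 15 and in 9.56% of all promoters, AP-1 letters in 2 and in 6.75%, and the PU.1 and NF-kB letters in 0, against 2.44% and 1.43%. The *Clec12a* window is not shown because it lies within the annotated gene (window chr6:129349994-129350243, gene chr6:129349783-129365303). It is still counted above, among the 3 members with C/EBP letters and the 2 with AP-1 letters. A match of letters is not evidence of binding.

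*Clec5a* and *Clec10a* are myeloid receptors outside both clusters. *Clec5a* encodes MDL-1, which signals through the adaptor DAP12, and had 16, 10 and 11 counts in Sham and 583, 568 and 819 after injury (log2 fold change 5.79 ± 0.21, edgeR adjusted p = 9.83e-08). *Clec10a*, the galactose-binding receptor MGL1 of macrophages and DCs, had 22, 31 and 28 counts in Sham and 120, 301.74 and 202 after injury (log2 fold change 3.00 ± 0.33, adjusted p = 5.50e-05). Its replicates differed more than those of *Clec5a*, and 10.6% of its sequence is shared with *Mgl2*, so the split of reads between them is uncertain. In all, 11 of 11 tested genes of the myeloid list were upregulated, with a median log2 fold change of 4.08.

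Myeloid markers rose in the same libraries. Of 14 macrophage markers 12 were upregulated, and their summed level was 418.8–429 CPM in Sham and 3535–3879 CPM in injured VEGFR3 fl/fl, with no marker at 0 in every library. Neutrophil markers were upregulated in 7 of 7 tested genes, with sums of 4.54–6.08 and 189.2–652.7 CPM, DC markers in 8 of 9 (18.1–21.1 and 252.4–368.9 CPM) and platelet markers in 2 of 5 (24.8–29.3 and 38.8–130.5 CPM). Divided by the summed macrophage markers of the same library, 7 of the 11 myeloid members were still higher after injury without overlap between the groups, whereas this held for 2.83% of all genes tested. *Clec4d* went from 0.264%–0.465% of the macrophage sum in Sham to 2.66%–5.65% after injury, and *Clec7a* from 1.16%–1.62% to 6.21%–10.99%. *Clec4a1* and *Clec9a* were lower on this scale, as were 92.1% of all genes, and *Clec4a2* and *Clec10a* overlapped with Sham. How far cell numbers account for each rise was not tested.

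**Figure D3:**
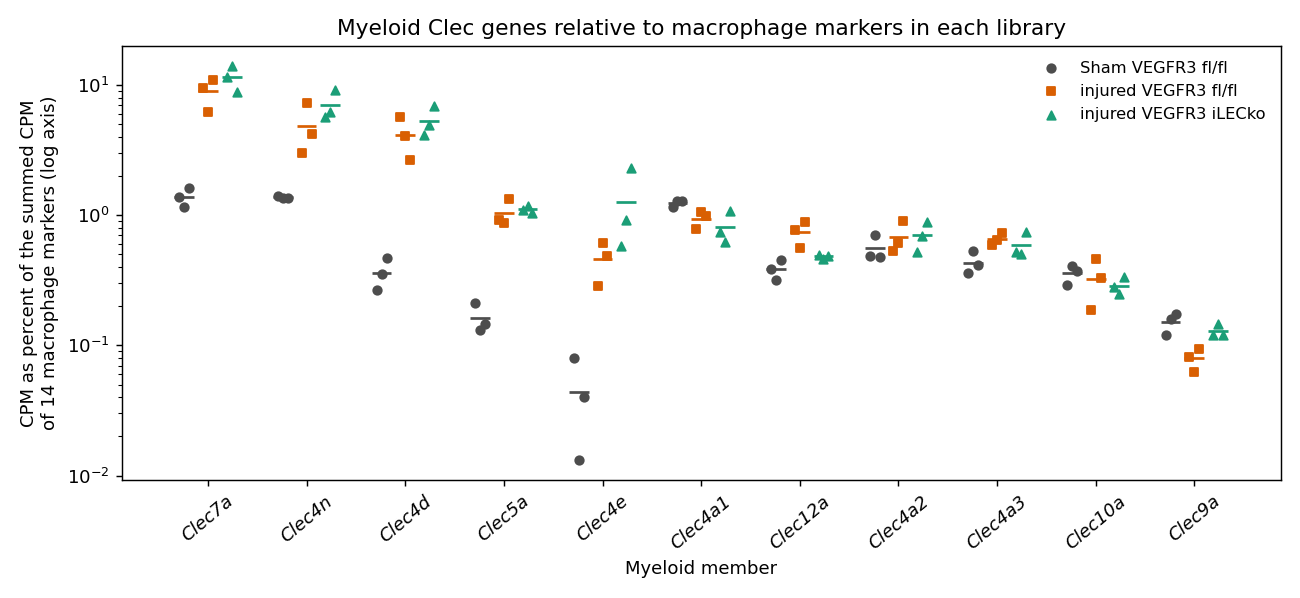
Expression of 11 myeloid *Clec* genes as a percent of the summed CPM of 14 macrophage markers in the same library (log axis), with 1 symbol per library and a bar at the group mean. *Clec4d*, *Clec4e* and *Clec7a* stood well above Sham on this scale in both injured groups, and *Clec12a* was lower in the 3 VEGFR3 iLECko libraries than in the 3 injured VEGFR3 fl/fl libraries.

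The *Clec2* genes encode Clr proteins, several of which are ligands of NKR-P1 receptors on natural killer cells. *Clec2d*, the ligand of the inhibitory receptor NKR-P1B, had 162, 194 and 147 counts in Sham and 603, 539 and 679 after injury (log2 fold change 1.92 ± 0.15, edgeR adjusted p = 7.42e-06). *Clec2e* rose from 4, 4 and 0 counts to 75, 90 and 121, and *Clec2i* from 5, 4 and 6 to 22, 49 and 38 (log2 fold changes 5.16 and 2.89, adjusted p = 2.89e-05 and 0.000186). *Clec2l*, known from neural tissue, fell from 109, 103 and 100 counts to 47, 38 and 50 (log2 fold change -1.14 ± 0.21, adjusted p = 0.00119). The tested *Clec2* genes thus moved in both directions, with 3 up and 1, *Clec2l*, down. Markers of natural killer and T cells were upregulated in 6 of 6 tested genes, and their sum was 3.72–4.27 CPM in Sham and 36.2–54.0 CPM after injury.

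Members of endothelium and connective tissue changed less evenly. *Clec14a*, an adhesion protein of endothelial cells, had 800, 718 and 804 counts in Sham and 2081, 1018 and 1396 after injury (log2 fold change 1.03 ± 0.23, edgeR adjusted p = 0.00380). Blood endothelial markers rose in 7 of 9 genes, from 474.8–504.6 to 1332–1427 CPM in sum. *Clec11a*, the secreted bone growth factor osteolectin, had 310, 395 and 309 counts in Sham and 3256, 760 and 1316 after injury (log2 fold change 2.48 ± 0.56, adjusted p = 0.00396). Each injured library lay above each Sham library for both genes, and in both the first replicate was the highest by far.

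*Clec3b*, which encodes tetranectin, a plasminogen-binding protein of connective tissue, depended on that library. It had 48, 54 and 55 counts in Sham and 129, 12 and 8 in injured VEGFR3 fl/fl libraries, and the group means were 2.94 ± 0.241 and 3.00 ± 4.19 CPM (SD, n = 3; log2 fold change 0.025 ± 0.87, edgeR adjusted p = 0.982). When replicate 1 of the injured group was left out, the log2 fold change was -2.33 (adjusted p = 0.00123), a downregulated DEG. The same replicate held 1521.71 counts of *Ccl21a*, a lymphatic chemokine, against 79.3 and 0 in the others, and 127 counts of the fibroblast gene *Dpt* against 19 and 5, 2 genes named after their values were seen. *Clec11a* and *Clec14a* stayed upregulated without it, at log2 fold changes of 1.66 and 0.68. Fibroblast markers were upregulated in 6 of 8 genes, from 3819–4385 CPM in sum in Sham to 15550–22520 CPM after injury.

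*Clec18a* and *Clec16a* belong to no immune group of the family. *Clec18a* encodes a secreted lectin and fell from 1104, 894 and 1002 counts in Sham to 153, 249 and 268 after injury, the largest decrease among the members (log2 fold change -2.10 ± 0.27, edgeR adjusted p = 0.000133). The iris markers fell in the same libraries, as given above, and their part in this decrease was not tested. *Clec16a* had 1780.62, 1812.25 and 1864.28 counts in Sham and 1678.85, 1833.62 and 1717.47 after injury, with a log2 fold change of 0.0088 ± 0.064 (adjusted p = 0.913). Its standard error was the smallest among the members tested.

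**Figure D4:**
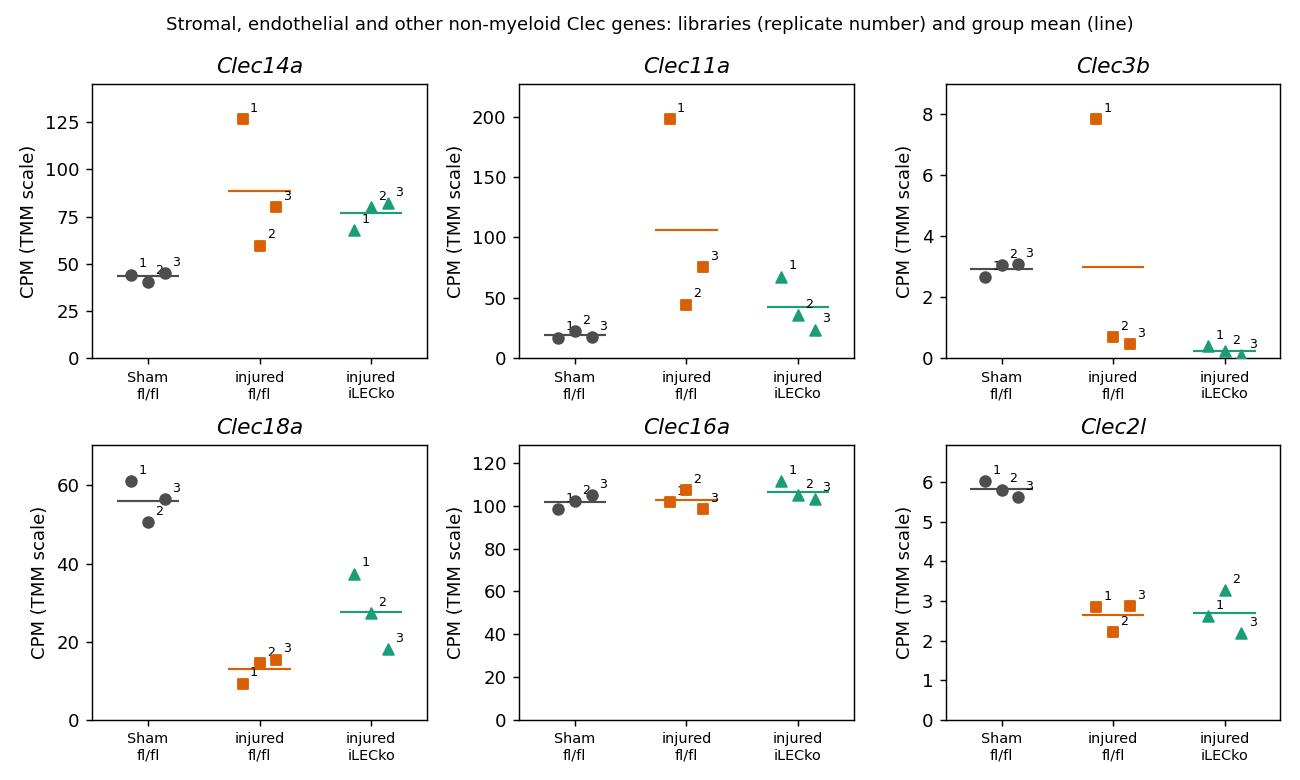
CPM of 6 *Clec* genes outside the myeloid groups in each library (linear axes from 0, numbers give the replicate, lines the group mean). Replicate 1 of injured VEGFR3 fl/fl was the highest library for *Clec14a*, *Clec11a* and *Clec3b*, *Clec18a* and *Clec2l* were lower after injury, and *Clec16a* was level.

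The 9 members that were not tested stayed at the limit of detection. *Clec12b*, an inhibitory receptor, had 1 to 3 counts in Sham and 2 to 7 after injury, and the DC and monocyte receptor *Clec4b1* had at most 1 count in Sham and 4 to 10 after injury. *Clec3a*, a gene of cartilage, had 6 to 9 counts in Sham and 1 to 6 after injury. *Clec4a4*, *Clec4b2*, *Clec2f*, *Clec2g*, *Clec2m* and *Clec4g*, a lectin of liver sinusoids, had at most 5 counts in any library. No gene counted carried the symbol *Clec2h*, *Clec2j* or *Clec4f*.

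Genes that act downstream of these receptors rose as well. Of 18 signaling genes, 16 were upregulated with a median log2 fold change of 3.10, *Rasgrp3* was downregulated and *Ptpn11* was neither. The adaptor *Fcer1g*, with the highest mean CPM of them over the 9 libraries, had 406, 504 and 423 counts in Sham and 10861, 8191 and 7852 after injury. *Hcst*, the gene for the adaptor DAP10, went from 1, 0 and 0 counts to 75, 51 and 62. Ligands and partners of the lectins were upregulated in 7 of 8 tested genes. Among these, *Itga11*, a subunit of the receptor of the *Clec11a* product, had 4, 15 and 11 counts in Sham and 535, 530 and 1057 after injury (log2 fold change 6.19, edgeR adjusted p = 2.38e-06), and *Vim*, with the highest mean CPM, rose with a log2 fold change of 1.84 (adjusted p = 3.01e-06).

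Injured VEGFR3 iLECko irises were compared with injured VEGFR3 fl/fl irises to ask how the lectins respond when VEGFR3 is targeted in lymphatic endothelium. All 3 VEGFR3 iLECko libraries but only 1 of the injured VEGFR3 fl/fl libraries had the low Y-linked level, so genotype and the sex of the pools cannot be fully told apart in this comparison. Of the 22 members, 2 were downregulated DEGs, *Clec12a* and *Clec4a3*, and 0 were upregulated by edgeR's quasi-likelihood test. Over all genes 0.466% were downregulated and 0.573% upregulated. Without adjustment, 8 members were lower and 1 was higher by more than 1.5-fold at p under 0.05, against 3.28% and 3.76% of all genes. DESeq2's Wald test called 3 lower and 1 higher. Its shares over all genes are not given here, so these DESeq2 counts have no background to be read against. The median log2 fold change of the members was -0.28 with 16 of 22 negative, against -0.0099 and 51.5% over all genes. The groups did not overlap in the lower direction for 7 members and in the higher direction for 1, *Clec18a*, against 14.3% and 12.4% of all genes. Both comparisons use the injured VEGFR3 fl/fl libraries, so their values are not independent.

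*Clec12a* (NCBI Gene ID 232413, chr6:129349783-129365303) had 495, 370 and 544 counts in injured fl/fl irises and 215, 187 and 188 in VEGFR3 iLECko libraries. Its mean was 27.6 ± 5.22 CPM (SD, n = 3) and 11.3 ± 1.08 CPM, against 1.63 ± 0.280 CPM in Sham, so that the VEGFR3 iLECko mean was 41.0% of the injured VEGFR3 fl/fl mean and remained above Sham. The log2 fold change was -1.29 ± 0.17 (edgeR adjusted p = 0.0235). *Clec4a3* (NCBI Gene ID 73149, chr6:122952515-122969878) had 374, 425 and 450 counts against 227, 203 and 288 (log2 fold change -0.83 ± 0.16, adjusted p = 0.0476). Neither call is firm, since once the Y-linked level entered the fit as a further term, which was tried only after these differences had come to light, the adjusted p was 0.153 for *Clec12a* and 0.285 for *Clec4a3* at log2 fold changes of -1.43 and -0.90. In a fit of only the 6 libraries compared the adjusted p was 0.0968 and 0.110, and leaving out single libraries ended calls as well. *Clec12a* had an adjusted p of 0.0511 without Sham replicate 3, 0.0597 without VEGFR3 iLECko replicate 1 and 0.108 without VEGFR3 iLECko replicate 2, and for *Clec4a3* each of the 9 libraries left out in turn ended the call (adjusted p = 0.0507 to 0.160).

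Other members had lower means in VEGFR3 iLECko libraries but did not pass the test. *Clec4a1* had 497, 692 and 609 counts in injured fl/fl irises and 323, 249 and 414 in VEGFR3 iLECko libraries, just past the threshold (log2 fold change -0.90 ± 0.18, edgeR adjusted p = 0.05002). *Clec4a2* had 336, 402 and 556 counts against 227, 281 and 342, and *Clec5a* had 583, 568 and 819 against 478, 477 and 401, with log2 fold changes of -0.63 and -0.57 (adjusted p = 0.124 and 0.0782). On the CPM scale none of these 3 genes overlapped between the groups. *Clec10a* had 120, 301.74 and 202 counts against 121.53, 100 and 129, and *Clec2i* had 22, 49 and 38 against 19, 16 and 23 (log2 fold changes -0.85 and -0.93, adjusted p = 0.135 and 0.147).

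The activating receptors of both clusters overlapped between the injured groups. *Clec7a* had 6069, 4073 and 6764 counts in injured fl/fl irises and 4956, 5671 and 3393 in VEGFR3 iLECko libraries. *Clec4d* had 3612, 2664 and 1637 against 1784, 1975 and 2679 counts, and *Clec4n* had 1914, 4737 and 2593 against 2453, 2497 and 3504. The log2 fold changes of these 3 genes were -0.30 ± 0.22, -0.34 ± 0.28 and -0.16 ± 0.28 (edgeR adjusted p = 0.413, 0.466 and 0.757). *Clec4e* had 183, 398 and 298 counts against 252, 372 and 895, where replicate 3 of VEGFR3 iLECko stood apart (log2 fold change 0.76 ± 0.45, adjusted p = 0.314). The same library had the highest neutrophil sum, 1513 CPM, against 471.7 and 621.3 in the other VEGFR3 iLECko libraries. The sums were 189.2–652.7 CPM in injured VEGFR3 fl/fl libraries. All 7 tested neutrophil markers had a positive log2 fold change between the injured groups (median 1.04). By edgeR 0 of them were DEGs and 2 had an unadjusted p under 0.05, which held for 24.5% of all genes. The part of neutrophils in the *Clec4e* level was not tested. Whether the inhibitory and the activating receptors differed from each other in their response was not tested.

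**Figure D5:**
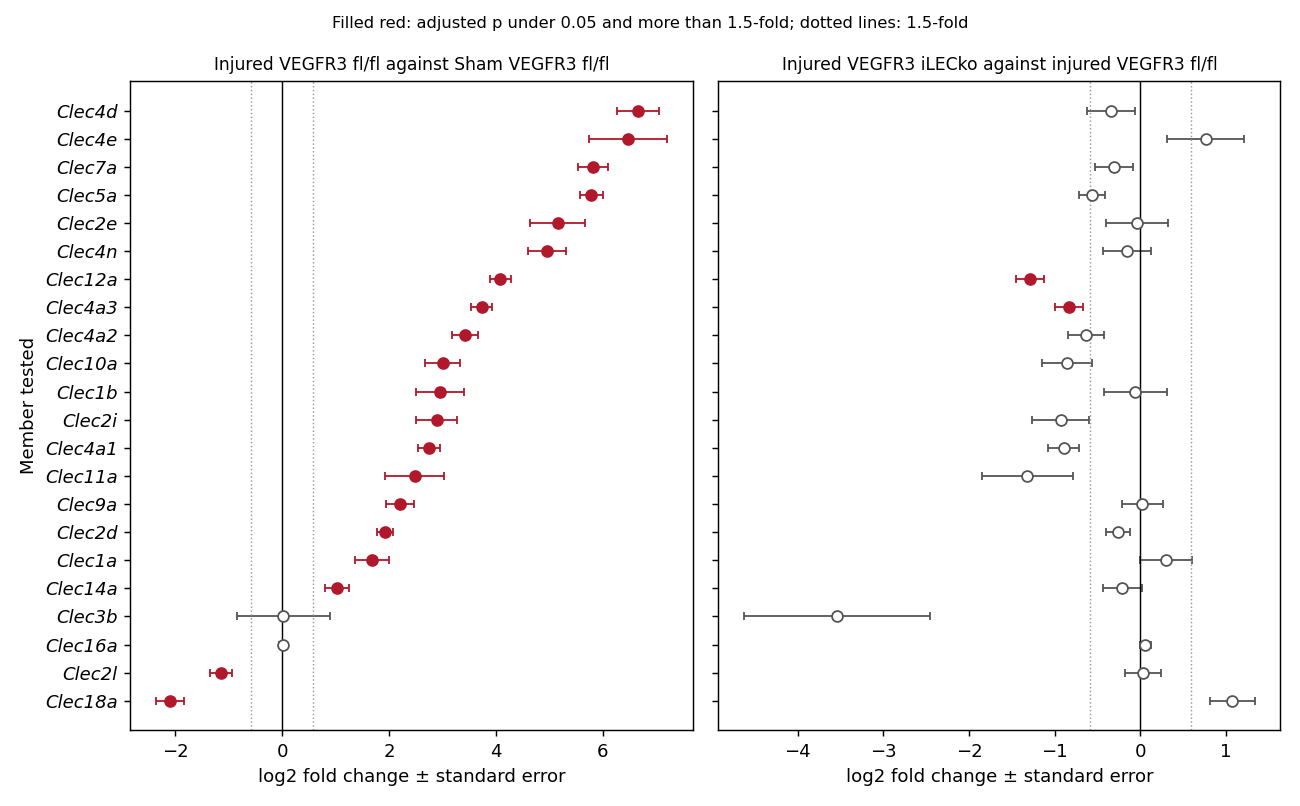
Log2 fold changes with standard errors of the 22 tested members after injury (left) and between VEGFR3 iLECko and injured VEGFR3 fl/fl irises (right); filled points are DEGs and dotted lines mark 1.5-fold. On the left 18 members are filled to the right of 0 and 2 to the left, and on the right only *Clec12a* and *Clec4a3* are filled.

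Most macrophage markers were lower in VEGFR3 iLECko than in injured VEGFR3 fl/fl irises. Of the 14, 11 had a negative and 3 a positive log2 fold change, and 0 were upregulated DEGs. The downregulated DEGs were 7 of 14, against 0.466% of all genes, namely *Adgre1*, *Fcgr1*, *Cx3cr1*, *C1qa*, *C1qb*, *C1qc* and *Aif1*. The sum of the 14 was 2225–2538 CPM in VEGFR3 iLECko against 3535–3879 CPM in injured VEGFR3 fl/fl libraries. Divided by this sum, *Clec4a3*, *Clec4a2*, *Clec4a1*, *Clec5a* and *Clec10a* overlapped between the injured groups. *Clec12a* did not, at 0.775%, 0.564% and 0.884% of the macrophage sum in injured fl/fl irises and 0.495%, 0.463% and 0.486% in VEGFR3 iLECko libraries. Among all genes tested, 0.213% were lower without overlap on that scale and 76.6% higher, as *Clec9a* was (0.0625%–0.0942% and 0.119%–0.146%). Of the DC markers *Irf8* was a downregulated DEG, with 1285, 1193 and 1201 counts against 801, 721 and 708 (log2 fold change -0.76, edgeR adjusted p = 0.0214). Of the 6 lymphatic markers 4 had a positive and 2 a negative log2 fold change, and 1 was a DEG. This was *Reln*, upregulated with 2126, 2118 and 2191 counts against 3814, 4139 and 3090 (log2 fold change 0.75, adjusted p = 0.0361). *Reln* was highest in Sham irises, at 10238, 7694 and 9110 counts, so its level here does not stand for lymphatic vessels. Against its cluster neighbour, in a ratio chosen after the values were seen, *Clec12a* had 8.04 to 9.08 counts per 100 counts of *Clec7a* in injured fl/fl irises and 3.30 to 5.54 in VEGFR3 iLECko libraries, while the Sham libraries had 27.3 to 27.9.

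Of the members outside the myeloid groups, none passed the test between the injured groups. *Clec18a* had 153, 249 and 268 counts in injured fl/fl irises and 640, 481 and 313 in VEGFR3 iLECko libraries, without overlap (log2 fold change 1.07 ± 0.26, edgeR adjusted p = 0.0691), and it was the member that DESeq2 called higher (adjusted p = 0.00294). Its level remained below that of Sham. *Clec3b* had 129, 12 and 8 counts against 7, 4 and 2 (log2 fold change -3.54 ± 1.08, adjusted p = 0.105), and -1.19 when replicate 1 of injured VEGFR3 fl/fl was left out. *Clec11a* had 3256, 760 and 1316 counts against 1158, 630 and 413 (log2 fold change -1.32 ± 0.53, adjusted p = 0.173), and -0.50 without that replicate. *Clec14a* had 1161, 1411 and 1426 counts in VEGFR3 iLECko libraries, and its log2 fold change of -0.21 ± 0.23 (adjusted p = 0.587) turned to 0.14 without the same replicate.

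The members left were close to even between the injured groups. *Clec1a* had 77, 128 and 165 counts in VEGFR3 iLECko libraries, *Clec1b* 22, 22 and 24, and *Clec9a* 52, 59 and 46. *Clec2d* had 439, 508 and 610 counts there, *Clec2e* 92, 99 and 92, *Clec2l* 45, 58 and 38, and *Clec16a* 1911.68, 1852.03 and 1797.16. The log2 fold changes of these 7 genes lay between -0.26 for *Clec2d* and 0.30 for *Clec1a*, and the edgeR adjusted p-values were 0.289 or more. Of the 18 signaling genes 1 was a downregulated DEG, *Ptpn6*, which encodes the phosphatase SHP-1 recruited by inhibitory receptors. It had 1542, 1581 and 2162 counts in injured fl/fl irises and 1111, 1207 and 1225 in VEGFR3 iLECko libraries (log2 fold change -0.61, adjusted p = 0.0399). Of the 18 genes 14 had a negative and 4 a positive log2 fold change (median -0.45), and 12 had an unadjusted p under 0.05 in either direction. Without overlap 11 were lower and 2, *Rasgrp3* and *Ptpn11*, were higher, against 14.3% and 12.4% of all genes. Ligands and partners had 0 DEGs in this comparison by edgeR, with 3 of 8 at an unadjusted p under 0.05, against 24.5% of all genes.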

How the data were processed

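The authors filtered single-end reads of 50 bases, aligned them with HISAT2 2.0.4 and Bowtie2 2.2.5 and deposited estimated counts per gene without normalization, which need not be whole numbers. Tool versions and the mm10 build come from the submitters' processing notes, and the program that estimated the counts is not given in the sources used here. A table of the series was not used. Counts were rounded and analysed in R 4.3.3 with edgeR 4.0.16 on all 9 libraries, with filterByExpr, TMM factors of 0.900 to 1.09, quasi-likelihood tests and Benjamini-Hochberg adjustment over 15010 genes. Standard errors came from the F statistic. Replicates are pools of irises, and p-values measure the spread between pools. DESeq2 1.42.0, other normalizations, filters, fits of 6 libraries, a replicate block, a Y-linked covariate and left-out libraries were alternatives. Every *Clec* gene was accounted for. Genes of other lists were named by rule if they were DEGs between the injured groups, had the highest mean CPM over the 9 libraries or, among DEGs, the largest fitted change after injury. Members, lists and tests were chosen with earlier results of these data known. On simulated data for the comparison of the injured groups, 169 of 200 genes changed 3-fold were recovered (84.5%) among 15010, with 0 in the wrong direction and 9 false calls. Each gene had 1 mean over the 3 groups before the change, so the simulation held no injury effect. Changes as small as those of *Clec12a* and *Clec4a3* (log2 fold changes -1.29 and -0.83) were not simulated. Gene positions and lengths came from RefSeq and GENCODE M21 (GRCm38).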

Additional observations from a re-analysis of the deposited data

How the results depend on the processing

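After injury, the count of upregulated *Clec* genes was 18 under every alternative except without the filter on low counts (19 of 31 genes), and 2 were downregulated except without injured VEGFR3 fl/fl replicate 1 (3, with *Clec3b* added). Between the injured groups, downregulated members numbered 2 in the reported fit, 1 by library size only, 0 with the Y-linked covariate (5 at an unadjusted p under 0.05 and more than 1.5-fold), 0 in the fit of 6 libraries (6 unadjusted, 21 members tested) and 0 to 2 with 1 library left out. The count was 0 without Sham replicate 3 (8 unadjusted), VEGFR3 iLECko replicate 1 (7) or VEGFR3 iLECko replicate 2 (6), at all of which *Clec12a* had an adjusted p of 0.0511, 0.0597 and 0.108 by edgeR. Upregulated members numbered 0, and 1 by DESeq2. The adjusted p of *Clec12a* ranged from 4.15e-08 to 0.153 and its log2 fold change from -1.44 to -1.19, over 16 alternatives. *Clec4a3* kept its call in 3 of 16 (RLE, no filter and DESeq2), with an adjusted p of 0.000568 to 0.285. Same-numbered libraries of different groups did not deviate together (correlations of -0.353 to 0.182, against -0.254 to 0.345 for other numbers). With 3 libraries per group this shows no pairing by number but cannot exclude it. With a replicate block 1 member was downregulated. Directions that turned were those of genes without a call. After injury they were *Clec16a* (-0.16 by library size only, -0.025 to 0.037 with 1 library left out) and *Clec3b* (-0.20 by library size only, -0.92 with a replicate block, -2.33 to 0.54 with 1 library left out). Between the injured groups, by library size only they were *Clec1b* and *Clec2e* (both 0.014), with the Y-linked covariate *Clec4n* (0.099), *Clec4d* (0.39), *Clec9a* (-0.10) and *Clec2l* (-0.094), and with 1 library left out *Clec14a* (-0.43 to 0.14), *Clec4n* (-0.39 to 0.29), *Clec1b* (-0.29 to 0.21), *Clec9a* (-0.11 to 0.12), *Clec2l* (-0.14 to 0.16) and *Clec2e* (-0.17 to 0.14). Scaling by library size only moved the median of all genes to -0.162 after injury and 0.0524 between the injured groups. The cause of these shifts was not tested. Counts under about 10 per library limit what can be said of the 9 untested members.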

Other observations

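C-type lectins with other names showed the same direction after injury. Of 28 tested genes of this kind, 23 were upregulated and 1, *Chodl*, was downregulated, with a median log2 fold change of 2 against 0.0102 over all genes. *Acan*, which encodes the cartilage proteoglycan aggrecan, went from 1, 0 and 0 counts in Sham to 128, 46 and 251 in injured VEGFR3 fl/fl libraries. *Mrc2*, a collagen receptor of mesenchymal cells, with the highest mean CPM of them over the 9 libraries, had 4498, 4349 and 4216 counts and then 5634, 6855 and 6211 (log2 fold change 0.59, edgeR adjusted p = 0.000232). *Chodl*, which encodes chondrolectin, fell from 77, 64 and 76 counts to 19, 0 and 4 (log2 fold change -3.13, adjusted p = 0.00777). In VEGFR3 iLECko against injured VEGFR3 fl/fl irises 0 of the 28 were DEGs by edgeR, 7 had an unadjusted p under 0.05 (24.5% of all genes did), and the median was -0.25.

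Over the 9 libraries, the genes whose log2 CPM followed *Clec12a* most closely were *Slc25a45* (Pearson r = 0.996), *Sema4d* (0.995), *Fcgr1* (0.995), *Prkcd* (0.994) and *Aif1* (0.993). Of these, *Fcgr1* and *Aif1* are macrophage markers and *Prkcd* belongs to the signaling list. The genes closest to *Clec3b* were *Ryr3* (0.984), *Upk3b*, a gene of mesothelium and bladder lining (0.974), *Gnas* (0.973), *Rflna* (0.973) and *Tcn2* (0.966). These correlations are descriptions over libraries that share groups and depth, without a test.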
